A study of Homo sapiens with 12 samples.

Results

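Glycolysis turns glucose into pyruvate in the cytosol, and cancer cells often send that pyruvate to lactate. Glucose enters through transporters such as SLC2A1 and is trapped by hexokinases such as HK2. The later steps run through TPI1, GAPDH, PGK1, PGAM1 and ENO1, and LDHA makes lactate. When oxygen is scarce, the transcription factor HIF-1 binds short DNA elements near many of these genes and raises their RNA. HIF-1 also raises PDK1, which limits the use of pyruvate in mitochondria, and CA9, a surface carbonic anhydrase among the standard markers of hypoxia. The transcripts described here were chosen by identity as 10 genes of this set, listed with 12 Ensembl transcript identifiers because LDHA has 3 alternatives. Counts were analysed for 8 of the 12 identifiers, 1 for each of 8 genes, out of 19686 transcripts with RNA counts listed and 19849 with footprint counts listed. They are SLC2A1 (ENST00000426263), HK2 (ENST00000290573), GAPDH (ENST00000229239), PGK1 (ENST00000373316), PGAM1 (ENST00000334828), ENO1 (ENST00000234590), LDHA (ENST00000540430) and CA9 (ENST00000378357). TPI1 (ENST00000396705), PDK1 (ENST00000282077) and the LDHA identifiers ENST00000422447 and ENST00000379412 were not analysed here. Low-count filtering kept 7 of the 8 in both assays, and CA9, with 0 RNA counts, is described by its counts alone.

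The cells were RKO, an established human colon cancer line labelled WT and epithelial, grown in DMEM without arginine and with 10% dialyzed serum, to which arginine was added back. Cells were first plated in full medium and then changed to the fed or starved medium. For 24 hours they received 400 uM arginine (fed) or 12.5 uM (starved). RNA-seq and ribosome profiling, which counts the RNA fragments that ribosomes protect (footprints), were done on both, with 3 libraries in each of the 4 groups of treatment and assay. The design asks how low arginine changes transcript levels, ribosome occupancy and the ratio of footprints to RNA. No label says whether the replicates were separate cultures, so p-values measure the spread between libraries, which may be technical. Library totals were 4670881 to 7967215 RNA counts and 2063952 to 4364383 footprint counts, and each of the 7 tested transcripts had at least 138 counts in every library. Levels are given in CPM, the usual unit of counts scaled to the library total. They are not compared between genes because transcript lengths are not used here. CPM is relative to the library total, so a change in the total RNA of a culture is not seen. In whole-culture RNA, fewer cells with a transcript and less of it per cell cannot be told apart.

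Promoter sequences of the genes were compared next. The core of the hypoxia response element is ACGTG or GCGTG on either strand. It was searched in the 250 bases before each start listed for a gene in RefSeq (GRCh38.p14). A CACGTG, which reads as the core on both strands, was counted once. Some listed starts lie inside the span of the gene, and their windows then lie inside it too. All 10 genes were matched, with 14 start windows, and 10 windows of 8 genes held at least 1 core. PGAM1 and SLC2A1 held 0 in their single windows. The PGAM1 window (chr10:97427568-97427817) lies inside the gene, which begins at 97426191, so sequence before that position was not searched. The single GAPDH window (chr12:6535014-6535263) also lies inside its gene, which begins at 6534517. Of the 35116 windows of this length in the same table, 43.2% held at least 1 core and 16.5% held at least 2. These are shares of windows, not of genes. The windows below were picked for having at least 2 cores, shown in capitals, in 2 genes whose RNA rose and 2 whose RNA fell in starved cells. HK2 lies on the plus strand (chr2:74834920-74835169) with 4 cores, ENO1 on the minus strand (chr1:8878687-8878936) with 2, LDHA on the plus strand (chr11:18394313-18394562) with 3 and PGK1 on the plus strand (chrX:78103998-78104247) with 3. The HK2 window with 4 cores lies inside the gene, which begins at 74834127. The other start window of HK2, which lies before the gene, held 3 cores. That of LDHA, which lies inside the gene, held 1.
HK2: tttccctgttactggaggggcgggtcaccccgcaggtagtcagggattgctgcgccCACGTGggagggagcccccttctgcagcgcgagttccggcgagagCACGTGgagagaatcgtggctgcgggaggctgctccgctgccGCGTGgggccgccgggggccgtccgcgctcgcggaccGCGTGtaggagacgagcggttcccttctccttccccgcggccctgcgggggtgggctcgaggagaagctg
ENO1: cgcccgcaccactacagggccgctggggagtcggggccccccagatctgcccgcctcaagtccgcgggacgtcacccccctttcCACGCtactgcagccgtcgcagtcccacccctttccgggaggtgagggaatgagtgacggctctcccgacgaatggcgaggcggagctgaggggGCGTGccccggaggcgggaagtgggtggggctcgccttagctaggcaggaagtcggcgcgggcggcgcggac
LDHA: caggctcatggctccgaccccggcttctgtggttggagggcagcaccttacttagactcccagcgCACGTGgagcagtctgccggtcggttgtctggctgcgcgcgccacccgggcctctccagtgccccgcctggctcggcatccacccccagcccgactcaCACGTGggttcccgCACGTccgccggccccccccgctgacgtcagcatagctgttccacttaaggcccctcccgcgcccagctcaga
PGK1: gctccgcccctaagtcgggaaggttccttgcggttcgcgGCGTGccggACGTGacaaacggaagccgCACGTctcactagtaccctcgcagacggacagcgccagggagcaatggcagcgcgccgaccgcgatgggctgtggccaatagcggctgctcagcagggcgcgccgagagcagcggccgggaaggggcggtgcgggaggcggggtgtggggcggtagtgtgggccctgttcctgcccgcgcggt
Among the 7 tested genes, the 2 with 0 cores in the window searched also differed in direction, since SLC2A1 RNA rose and PGAM1 RNA fell. Which start the counted transcripts use is not given in the sources used here, and a match describes letters, not binding.

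RNA of the set split into 2 directions: the transporter SLC2A1, the hexokinase HK2 and the enolase ENO1 rose in starved cells, and GAPDH, PGK1, PGAM1 and LDHA fell. All 7 tested transcripts were called (adjusted p under 0.05, edgeR), 3 higher and 4 lower, where 67.9% of 11572 tested transcripts were called, 33.8% higher and 34.1% lower. In all 7 the fed and starved libraries did not overlap in CPM, which held for 69.7% of the transcripts tested. Being called is therefore close to the background; what the values show is the size and direction of each change. The median log2 fold change (starved over fed) of the 7 was −0.27, beside −0.012 for all tested transcripts, and their median absolute change was 0.66 beside 0.42. With library totals in place of TMM scaling factors the median of all transcripts moved to −0.12, and no member changed direction or call.

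SLC2A1 (GLUT1) is the transporter that brings glucose into most cells. Its RNA was 47.9, 40.2 and 38.9 CPM in fed replicates 1 to 3 and 71.7, 73.2 and 80.2 CPM in starved replicates 1 to 3. Every starved library was above every fed library. The log2 fold change was 0.93 (edgeR adjusted p = 1.53e-14, SE 0.09), 1.90-fold. HK2, the inducible hexokinase that phosphorylates glucose and binds mitochondria, had the largest rise of the 7. Its RNA was 119, 123 and 129 CPM in fed and 269, 326 and 317 CPM in starved libraries. That is a log2 fold change of 1.41 (edgeR adjusted p = 1.56e-26, SE 0.07), 2.65-fold and above 97.1% of all transcripts tested. The 2 transcripts for glucose entry thus both rose. Their fitted changes were larger than that of the enolase further down the pathway, a difference that was not tested.

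The 4 enzymes from glyceraldehyde phosphate to phosphoenolpyruvate did not move together in RNA. GAPDH, which oxidises glyceraldehyde phosphate and is often used as a reference gene, had 2818, 2534 and 2338 CPM in fed and 1922, 2074 and 1923 CPM in starved libraries. It fell by 0.27 on the log2 scale (edgeR adjusted p = 0.00386, SE 0.08), the smallest change of the 7. PGK1, which makes ATP in the next step, had 368, 350.5 and 314 CPM in fed and 214, 237 and 235 CPM in starved libraries and fell by 0.48 (edgeR adjusted p = 1.65e-08, SE 0.07).

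PGAM1, the mutase that follows, fell most. Its RNA was 524, 493 and 429 CPM in fed and 199, 201 and 207 CPM in starved libraries. The log2 fold change was −1.14 (edgeR adjusted p = 3.14e-22, SE 0.07), 2.20-fold lower, and 7% of all tested transcripts fell further. ENO1, which acts directly after PGAM1, went the other way. It had 1306, 1146 and 1099 CPM in fed and 1619, 1925 and 1652 CPM in starved libraries, a log2 fold change of 0.66 (edgeR adjusted p = 8.61e-11, SE 0.08). LDHA, which turns pyruvate into lactate and restores NAD, fell from 656, 654 and 683 CPM in fed to 388, 426 and 418 CPM in starved libraries. Its log2 fold change was −0.58 (edgeR adjusted p = 6.21e-11, SE 0.07), and fed and starved libraries were far apart.

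**Figure D1:**
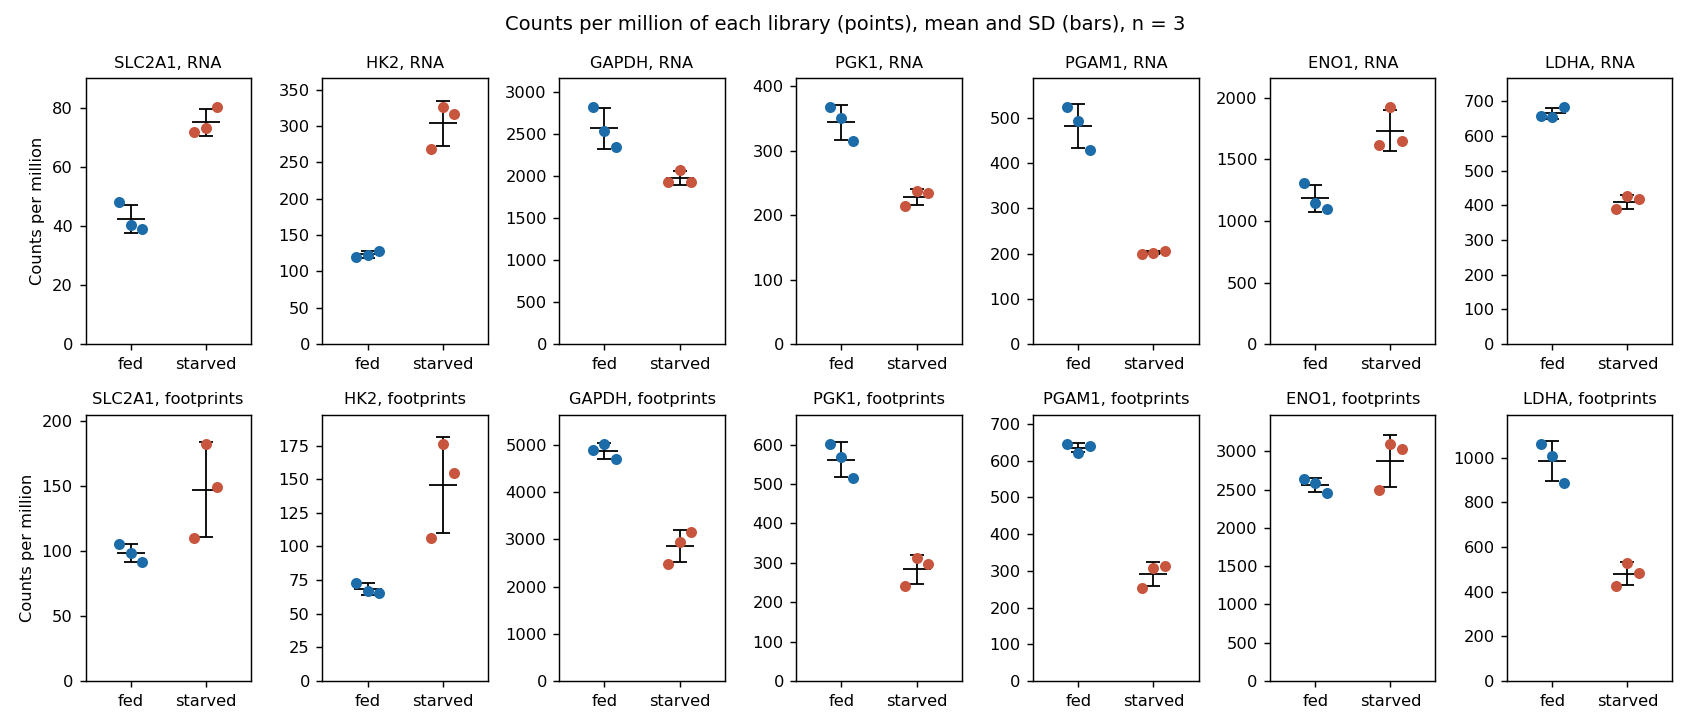
CPM (y axes, each starting at 0) of the 7 tested transcripts in fed (blue) and starved (red) libraries, RNA above and footprints below; points are libraries and bars the mean and SD of 3. SLC2A1, HK2 and ENO1 RNA is higher and the other 4 are lower in every starved library, and in footprints only ENO1 has groups that overlap.

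Genes with processed pseudogenes can share reads with them, and RefSeq (GRCh38.p14) lists 65 pseudogenes named after GAPDH, 13 after PGAM1, 6 after LDHA, 4 after ENO1, 2 after PGK1, 1 after HK2 and 0 after SLC2A1 or CA9. How such reads were assigned is not given in the sources used here, so the values of GAPDH, PGAM1, LDHA, ENO1, PGK1 and HK2 carry that uncertainty, and its part in the results was not tested. Starved replicate 1 held the lowest CPM of its group for all 7 transcripts in RNA and again for all 7 in footprints, where the same library was the lowest for 37.4% and 40.5% of all tested transcripts. Leaving it out of either assay changed no call in RNA, footprints or efficiency.

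Footprints fell on the same 4 transcripts and rose on the 2 for glucose entry, while those of ENO1 did not pass the test. Of the 7, 6 were called in edgeR, 2 higher and 4 lower, where 39.8% of 13457 transcripts were called, 18.9% higher and 20.9% lower. In 6 of the 7 the groups did not overlap in CPM, beside 50.6% of all tested transcripts. The median log2 fold change of the 7 was −0.82, beside 0.053 for all tested transcripts.

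On HK2, footprints were 73.1, 66.9 and 65.1 CPM in fed and 107, 176 and 154 CPM in starved libraries. Starved replicate 1 was well below the other two and still above every fed library. The log2 fold change was 1.04 (edgeR adjusted p = 0.000567, SE 0.17), above 94.1% of the transcripts tested. On SLC2A1 they were 106, 98.4 and 91.1 CPM in fed and 109.9, 182 and 149 CPM in starved libraries, so the lowest starved library nearly touched the highest fed one. The log2 fold change of 0.53 (SE 0.17) passed in edgeR with adjusted p = 0.0263. That call rests on single libraries: it was lost without fed footprint replicate 1 (0.57, adjusted p = 0.0526), 2 (0.51, adjusted p = 0.0745) or 3 (0.45, adjusted p = 0.118), and without starved footprint replicate 2 (0.34, adjusted p = 0.119) or 3 (0.53, adjusted p = 0.0569), in edgeR. Over all alternatives its adjusted p ranged from 0.00171 to 0.119.

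The 4 falling transcripts lost footprints by 0.82 to 1.17 on the log2 scale. Footprints on GAPDH were 4887, 5033 and 4704 CPM in fed and 2486, 2948 and 3156 CPM in starved libraries, a log2 fold change of −0.82 (edgeR adjusted p = 0.000101, SE 0.11). On PGK1 they were 603, 568 and 516 CPM in fed and 242, 312 and 298 CPM in starved libraries, a log2 fold change of −1.03 (edgeR adjusted p = 5.62e-05, SE 0.13). Both sets of libraries were widely separated. PGAM1 had 647, 622 and 639 CPM in fed and 253, 309 and 312 CPM in starved libraries and the largest loss, −1.17 (edgeR adjusted p = 1.23e-05, SE 0.12). LDHA had 1064, 1007 and 887 CPM in fed and 426, 530.4 and 485 CPM in starved libraries, −1.09 (edgeR adjusted p = 2.75e-05, SE 0.12). Of all transcripts tested, 5.02% lost more than PGAM1 and 11.1% lost more than GAPDH.

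On ENO1, footprints were 2634, 2589.7 and 2455 CPM in fed and 2489, 3099.8 and 3033 CPM in starved libraries. Starved replicate 1 lay within the fed range, and the other two lay above it. The log2 fold change was 0.12 (95% interval −0.12 to 0.36, edgeR adjusted p = 0.407), and under all 13 alternatives it stayed uncalled, between 0.049 and 0.20. A rise of ENO1 RNA by 0.66 was thus not met by a called rise in footprints.

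**Figure D2:**
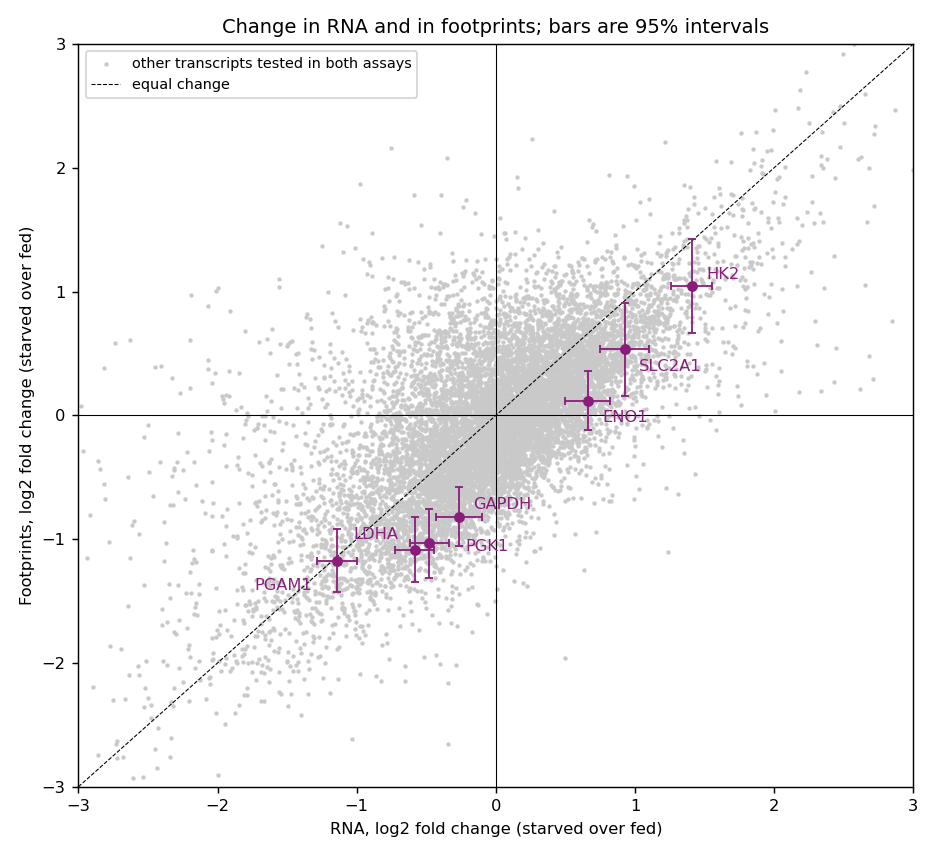
Log2 fold change (starved over fed) in RNA (x axis) and footprints (y axis) for the 7 transcripts (purple, 95% intervals) and the others tested in both assays (grey); 73 of 11027 lie outside the axes. PGAM1 lies on the dashed line of equal change, at −1.14 and −1.17, and the other 6 lie below it.

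Relative to other transcripts, GAPDH, PGK1, ENO1 and LDHA had fewer footprints for a given amount of RNA in starved cells. This is called a lower translational efficiency. TMM scaling within each assay centres the efficiency changes, whose median over all tested transcripts was −0.023 on the log2 scale. A change in total footprints or total RNA is therefore not seen, and the speed of ribosomes was not measured. The test asks whether the change in footprints differs from the change in RNA, over all 12 libraries in one model (an assay by treatment interaction). Of the 7, 4 were called lower and 0 higher in edgeR, where 22.8% of 11027 transcripts were called, 11.1% higher and 11.7% lower. DESeq2 and limma-voom each also called 4 lower and 0 higher, and 0 were higher at an unadjusted p under 0.05 in edgeR. The log2 fold changes were −0.47 for GAPDH (edgeR adjusted p = 0.0191, SE 0.14), −0.47 for PGK1 (edgeR adjusted p = 0.0170, SE 0.14), −0.46 for ENO1 (edgeR adjusted p = 0.0234, SE 0.14) and −0.42 for LDHA (edgeR adjusted p = 0.0234, SE 0.13). These 4 differ in RNA direction, since ENO1 RNA rose and the other three fell. Whether the 4 efficiency changes differ from each other was not tested.

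The other three were not called. For PGAM1 the efficiency change was 0.050 (95% interval −0.22 to 0.32, edgeR adjusted p = 0.819), and the value moved between −0.048 and 0.29 over the 20 alternatives, the highest with the trend against abundance removed (edgeR adjusted p = 0.128; range over all alternatives 0.128 to 0.976). For HK2 it was −0.28 (95% interval −0.65 to 0.09, edgeR adjusted p = 0.265) and for SLC2A1 −0.32 (95% interval −0.70 to 0.07, edgeR adjusted p = 0.231). These intervals include the size of the called changes for HK2 and SLC2A1. The HK2 value ranged from −0.43 without starved footprint replicate 2 to −0.14 without starved footprint replicate 1 and −0.073 with the trend against abundance removed, and was never called (adjusted p from 0.0625 to 0.799). The SLC2A1 value was −0.18 without starved footprint replicate 1. Whether PGAM1 differs from the called 4 was not tested. Without starved footprint replicate 2, SLC2A1 was called as well (−0.49, edgeR adjusted p = 0.0354; range over all alternatives 0.0354 to 0.439).

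The efficiency calls depended on scaling and on single libraries, while the direction of each of the 4 did not change under any of the 20 alternatives. With library totals alone 0 were called in edgeR, with 4 at an unadjusted p under 0.05, and the changes lay between −0.37 and −0.32 (adjusted p = 0.0659 for PGK1, 0.0713 for GAPDH, 0.0854 for ENO1 and 0.0918 for LDHA); 14.2% of all transcripts were then called higher and 7.28% lower. With the trend against abundance removed from each library, GAPDH (−0.51, edgeR adjusted p = 0.0123) and ENO1 (−0.44, edgeR adjusted p = 0.0325) were called, and PGK1 was at −0.22 (edgeR adjusted p = 0.265) and LDHA at −0.24 (edgeR adjusted p = 0.196). Over all alternatives edgeR, DESeq2 or limma gave adjusted p from 0.00127 to 0.0713 for GAPDH, 0.00419 to 0.265 for PGK1, 0.00348 to 0.0854 for ENO1 and 0.00557 to 0.196 for LDHA. Without fed RNA replicate 2, ENO1 (−0.43, edgeR adjusted p = 0.0647) and LDHA (−0.41, edgeR adjusted p = 0.0599) were not called. ENO1 was also lost without starved RNA replicate 2 (−0.41, edgeR adjusted p = 0.0513), and LDHA without starved RNA replicate 3 (−0.40, edgeR adjusted p = 0.0589) or fed footprint replicate 1 (−0.37, edgeR adjusted p = 0.0639).

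**Figure D3:**
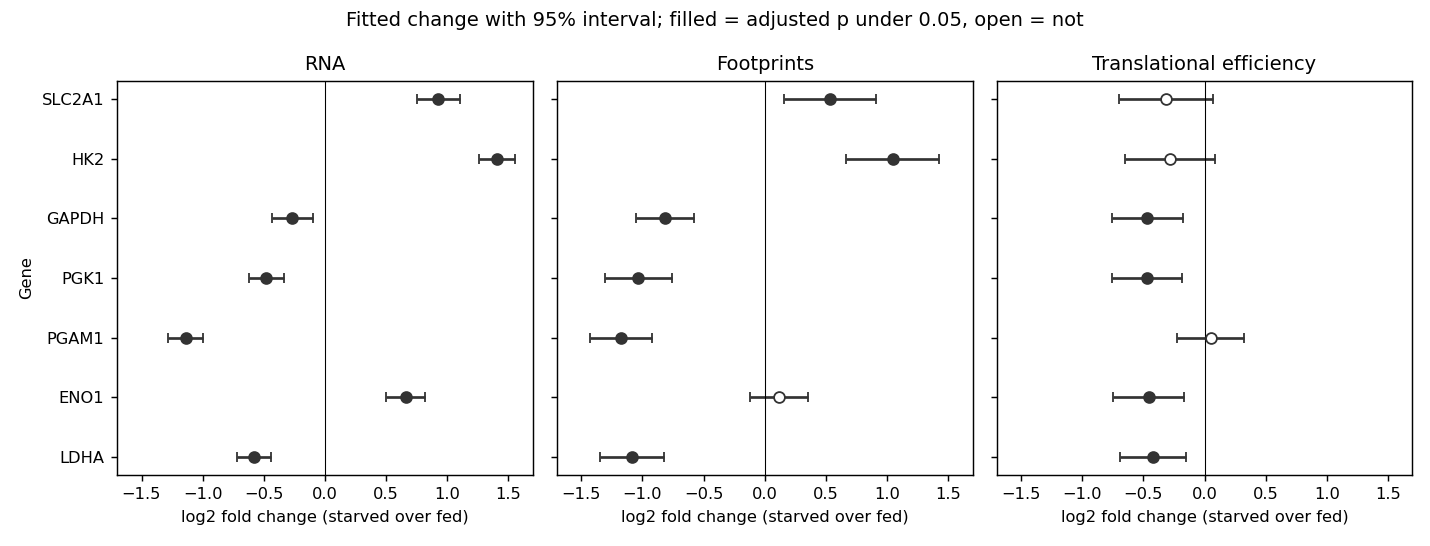
Fitted log2 fold changes (x axes, starved over fed) of the 7 transcripts (y axis) in RNA, footprints and efficiency with 95% intervals; filled points have an adjusted p under 0.05. All 7 are filled in RNA, 6 in footprints and 4 in efficiency.

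**Figure D4:**
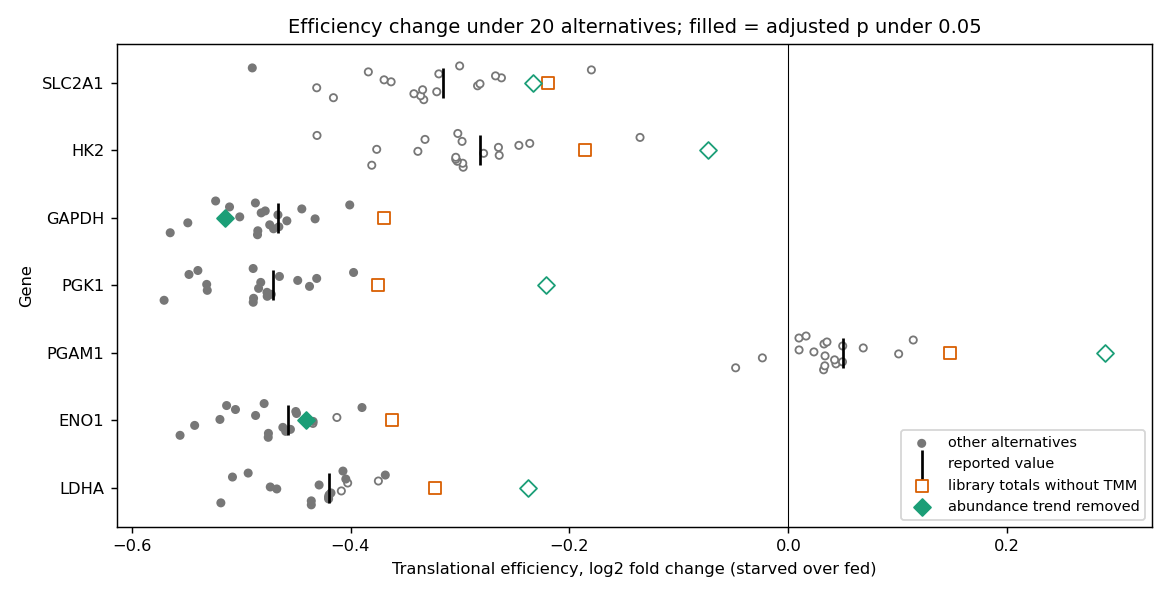
Efficiency change (x axis, log2) of each transcript (y axis) as reported (black bar) and under 20 alternatives (points; filled where adjusted p is under 0.05). GAPDH, PGK1, ENO1 and LDHA stay below 0 throughout and are open for library totals without TMM factors, while PGAM1 falls on both sides of 0.

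The level of footprints for a given RNA differed between members already in fed cells. The ratio of mean footprint CPM to mean RNA CPM in fed cells was 2.32 for SLC2A1, 2.16 for ENO1, 1.90 for GAPDH, 1.63 for PGK1, 1.48 for LDHA, 1.32 for PGAM1 and 0.553 for HK2, beside a median of 0.878 over the 11027 transcripts. HK2, the most strongly induced member, was thus the one below that median, at a place above 28.5% of all transcripts, while the other 6 lay above 70.2% or more. In starved cells the ratios were 1.96, 1.66, 1.45, 1.24, 1.17, 1.44 and 0.480 in the same order of genes, beside a median of 0.919. PGAM1 kept its place, above 70.3% of transcripts, and GAPDH went from above 84.5% to above 70.6%. The ratio also depends on which part of a transcript was counted in each assay, which is not given in the sources used here.

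Because CPM depends on everything else in the library, each transcript was also set against GAPDH within the same library, where scaling cancels. GAPDH itself fell, so these values describe ratios within the pathway and not changes of one gene. Per 100 GAPDH counts in RNA, HK2 went from 4.87 ± 0.630 in fed to 15.4 ± 1.28 in starved (SD, n = 3), 3.16-fold. SLC2A1 went from 1.65 ± 0.0578 to 3.81 ± 0.329 (SD, n = 3), and ENO1 from 46.2 ± 0.893 to 87.7 ± 4.55 (SD, n = 3). In footprints ENO1 went from 52.5 ± 1.25 to 100.5 ± 4.54 (SD, n = 3), so starved cells had about as many footprint counts on ENO1 as on GAPDH. The ENO1 to GAPDH ratio rose 1.90-fold in RNA and 1.91-fold in footprints.

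PGAM1 went down against GAPDH in both assays, from 18.8 ± 0.596 to 10.3 ± 0.529 in RNA and from 13.1 ± 0.636 to 10.2 ± 0.290 in footprints (SD, n = 3). PGK1 and LDHA moved least against GAPDH, to 0.862 and 0.798 of the fed ratio in RNA and to 0.860 and 0.833 in footprints. Fed and starved libraries did not overlap for any of these 6 ratios in either assay. Of all tested transcripts but GAPDH, these 6 included, 66.5% did not overlap in RNA (47.2% higher and 19.4% lower in starved cells). In footprints 76.6% did not (71.5% higher and 5.04% lower). These ratios share the GAPDH count and are given as a description, with no test.

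**Figure D5:**
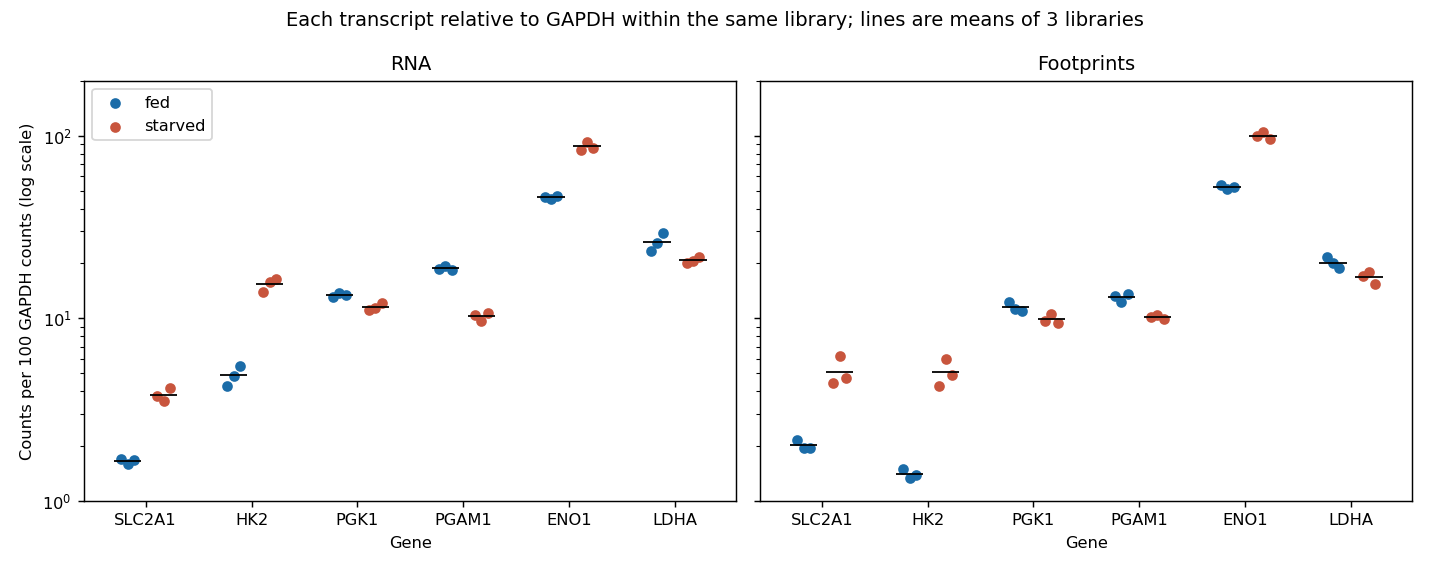
Counts of each transcript per 100 GAPDH counts of the same library (y axis, log scale) for 6 genes (x axis), in RNA and footprints, with fed libraries blue, starved libraries red and lines for the mean of 3. SLC2A1, HK2 and ENO1 are higher and PGK1, PGAM1 and LDHA lower in every starved library than in any fed one. Groups were separate in this way for 66.5% of all tested transcripts but GAPDH in RNA and 76.6% in footprints.

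Together the 8 transcripts took a smaller part of the footprints in starved cells. They held 1.00%, 0.999% and 0.936% of footprint counts in fed and 0.611%, 0.756% and 0.759% in starved libraries, means of 0.979% ± 0.0371 and 0.709% ± 0.0842 (SD, n = 3). The groups did not overlap. In RNA their part was 0.540% ± 0.0408 in fed and 0.493% ± 0.0301 in starved (SD, n = 3), and the groups overlapped. GAPDH and ENO1 hold most of these counts, so the sums describe mainly these genes, which moved differently. Mean footprints went from 4875 to 2863 CPM on GAPDH and from 2559 to 2874 CPM on ENO1, whose groups overlapped. Mean RNA went from 2564 to 1973 CPM for GAPDH and from 1184 to 1732 CPM for ENO1.

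CA9, which HIF-1 induces strongly in many tumours, gave 0 RNA counts in the 6 RNA libraries. A limit of 3 counts allows up to 0.0753 CPM over those libraries. Footprints on it were 6, 3 and 3 counts in fed and 7, 6 and 4 counts in starved replicates 1 to 3. The sums of 12 and 17 counts correspond to 1.40 CPM (95% exact Poisson interval 0.725 to 2.45) and 1.93 CPM (1.12 to 3.08). Their ratio of 1.37 had a 95% interval of 0.618 to 3.15, so a change was not detectable at this depth; these intervals cover counting error only.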

How the data were processed

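The deposited values are whole-number, unnormalized counts, with Ensembl transcripts as features and 1 table for each assay. Per the labels' protocols, RNA libraries used a TruSeq kit, and RiboCop removed ribosomal RNA. The submitters' processing notes name cutadapt, STAR, UMI-tools, DESeq2 and GRCh38.p13 without roles or versions; for the counting tool, annotation release and counted region the sources used here give nothing. Gene names come from the list that defined the set, because 0 of 19849 identifiers matched the gene tables; for this reason planned lists of other pathway genes, cell line markers and transcripts with similar patterns were not used here. The members and lists were chosen with earlier results of these data known. All members analysed are named.

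R 4.3.3 and edgeR 4.0.16 were used to fit each whole table of counts with treatment as the term, by the two-sided quasi-likelihood test after TMM scaling and filterByExpr. Efficiency was the assay by treatment interaction, with TMM within assay. P-values were adjusted by Benjamini-Hochberg over all transcripts tested, with a threshold of 0.05. Standard errors are the absolute log2 fold change divided by the root of F. The spread between libraries that edgeR calls the biological coefficient of variation was 5.75% in RNA and 13.7% in footprints. It may be technical, since no label says whether replicates were separate cultures. Typical (median) standard errors of a log2 change were 0.10 in RNA, 0.19 in footprints and 0.20 in efficiency. Fits were run on simulated counts with planted changes larger than the efficiency changes called here, so that run does not bear on those calls. No replicates were identical, and chi-square per degree of freedom between replicates was 2.07 to 7.73. Alternatives were DESeq2 size factors, library totals, removal of an abundance trend (loess, span 0.3), no filter, DESeq2 1.42.0, limma-voom 3.58.1, replicate blocks and each library left out.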

Additional observations from a re-analysis of the deposited data

Results flagged for a closer look

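RNA and footprints changed by different amounts under the same contrast on 4 transcripts, by the interaction test. The efficiency change was −0.47 for GAPDH, −0.47 for PGK1, −0.46 for ENO1 and −0.42 for LDHA on the log2 scale (edgeR adjusted p = 0.0191, 0.0170, 0.0234 and 0.0234). All 4 missed the threshold with library totals alone, and the cause was not tested.

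Footprints were counted on CA9, 12 in fed and 17 in starved libraries, where RNA gave 0 counts in 6 libraries. Single libraries held only 3 to 7 of these footprint counts, and their source was not tested.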

How the results depend on the processing

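In RNA, all 91 combinations of 7 transcripts and 13 alternatives kept direction and call. In footprints 85 of 91 did, and the 6 others were the lost call of SLC2A1. In efficiency 126 of 140 did. The number of transcripts with more footprints, 2, was 1 with the replicate number as a block (SLC2A1 at 0.50, edgeR adjusted p = 0.0582) and 1 to 2 when single libraries were left out. Of the 4 efficiency calls, all lower, 0 remained with library totals alone and 2 with the abundance trend removed; 2 to 5 were called when single libraries were left out, with 2 without fed RNA replicate 2. The efficiency change of PGAM1, never called, was −0.048 without a filter on low counts and −0.024 (without fed RNA replicate 1) to 0.11 with single libraries left out, 0.15 with library totals alone and 0.29 with the abundance trend removed, where its unadjusted p alone was under 0.05. The causes were not tested.

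Same-numbered fed and starved libraries did not deviate together (correlations across transcripts −0.189 to 0.114, beside −0.126 to 0.116 for other numbers). RNA and footprint libraries of one number gave −0.0187 to 0.129, beside −0.111 to 0.0860 for other numbers. The highest, for starved replicate 1, lay above the range of the other numbers. The numbers were not taken to pair samples. With the replicate block, or with the 2 assays blocked by culture, 4 efficiency calls were made as before; apart from the SLC2A1 footprint call above, the block changed no call. Leaving out a library assumes that the remaining 2 of its group vary like the others. Depth limits CA9 most, at 3 to 7 footprint counts per library. For HK2 and SLC2A1 the standard errors in footprints went, without starved replicate 1, from 0.17 to 0.12 and from 0.17 to 0.13.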
